A study of Homo sapiens with 9 samples.

Results

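The FOX genes, which code for forkhead transcription factors, and the SOX genes, which code for SRY-box factors, were read in A2780 cells that were untreated or treated with DIG-MSK. Members were taken by name, under a rule set with earlier results of these data known. A gene probe had to carry a RefSeq mRNA of a gene with a fitting symbol. That symbol begins with FOX, a letter from A to S and a digit, or consists of SOX and a number. This gave 63 of the 35010 genes and unnamed transcripts on the array, 44 with a FOX symbol and 19 with a SOX symbol, read by 78 probes. FOXL2NB met the rule by its symbol although it is an open reading frame beside FOXL2 and codes for no forkhead domain.

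Forkhead factors bind DNA through a winged-helix domain, and SOX factors bind and bend DNA through an HMG box that contacts the minor groove. Both families set cell identity during development: SOX2 and SOX3 maintain neural and pluripotent progenitors, SOX8, SOX9 and SOX10 act in gonad, cartilage and neural crest, and FOXA factors open chromatin in endoderm. Other members run general programmes, such as FOXM1 for mitotic genes and the FOXO factors for genes of stress and growth arrest, whose activity is set mainly by phosphorylation and location, which mRNA does not show.

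The A2780 line was established from a human ovarian carcinoma. DIG-MSK, an analogue of the antibiotic mithramycin A, attaches to C/G-rich DNA in its minor groove. The arrays held RNA of 3 untreated cultures (0 nM) and of 3 cultures each that had DIG-MSK for 24 h at 8 nM or at 80 nM, described in the methods as independent biological replicates. All groups were the same cell line without any engineered allele. The comparisons asked how each concentration changed the mRNA of these genes and whether the higher one differed from the lower one.

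A level is the log2 of the background-corrected intensity of a probe minus the log2 of the 75th percentile of its array, so levels of 1 probe can be set side by side across arrays, but not those of different probes. A gene was tested if a probe was well above background on every array of 1 or more of the 3 groups. It was called by the rule of the methods: an unadjusted p under 0.05 and a ratio of 1.5-fold or more for higher, or of 0.67-fold or less for lower. The untreated and 8 nM arrays lay on slide 1 and the 80 nM arrays on slide 2, so an effect of 80 nM and one of the slide cannot be told apart. In RNA of whole cultures, fewer cells of a kind and less RNA per cell cannot be told apart either.

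Replicate arrays correlated at 0.9885 or more, the untreated and 80 nM arrays at 0.9426 to 0.9498. Of 14 markers of ovarian carcinoma epithelium, 7 to 9 were well above background per array, with a summed level of 7.86 to 9.45 times the 75th percentile and no separation of the groups. KRT7, KRT8 and KRT18, which made up most of the sum, were above background on all 9 arrays. In contrast, WT1, MUC16, CDH1, CLDN3 and MSLN were above background on none, and PAX8 on 1 array of each group. Of the 8 tested, EPCAM was called higher at 8 nM (0.9) and lower at 80 nM (-0.93), and ESR1 lower at 8 nM (-0.58). CLDN4, above background on no untreated array, was called higher at 80 nM. Of 8 stromal markers, 5 to 7 were above background, and their summed level was 192 to 221 times the 75th percentile in untreated, 177 to 197 at 8 nM and 254 to 266 at 80 nM. VIM made up most of it, and without VIM the sums were 13.3 to 13.9, 13.7 to 15.4 and 10.9 to 11.5. Of the 7 stromal markers tested, 1 was higher at 80 nM (COL1A1) and 3 were lower (CDH2, PDGFRA and COL1A2). At 8 nM COL1A1 (0.9) and COL1A2 (0.66) were higher. Of 7 leukocyte markers, 4 to 7 were above background with a summed level of 2.13 to 3.3, and of 6 endothelial markers 1 or 2, with 0.118 to 0.181, in ranges that overlapped between the untreated and 80 nM arrays for leukocytes but not for endothelium (0.137 to 0.144 against 0.155 to 0.181). Among the leukocyte markers, CD68 was called higher at 80 nM (1.25) and PTPRC lower at 8 nM (-0.73). CD79A made up most of the leukocyte sum and CDH5 most of the endothelial one. CDH5 was the only endothelial marker tested and was called neither at 8 nM (-0.23) nor at 80 nM (0.23). PECAM1, KDR, TEK and CLDN5 were above background on no array. The part of these shifts in the results below was not tested.

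At 80 nM, 10 FOX and SOX genes were higher than in untreated cells and 8 were lower, out of 36 tested. The called share was 50% of the members in either direction, beside 35.1% of all 21833 genes tested. By direction it was 27.8% against 18.8% for higher and 22.2% against 16.3% for lower. At 8 nM, 1 member was higher (FOXS1) and 1 lower (FOXP4), which is 5.56% of the members beside 7.09% of all genes. All 18 calls at 80 nM also had an adjusted p under 0.05 (limma, Benjamini-Hochberg over all genes), a rule that called 34.3% of all genes. At 8 nM the call of FOXS1 had one and that of FOXP4 did not, under a rule that called 5.11% of all genes. At any size of change, 5 members had an adjusted p under 0.05 at 8 nM, which is 13.9% beside 13.6% of all genes, and 24 at 80 nM, which is 66.7% beside 59%.

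The median change of the 36 members at 80 nM was -0.09 on the log2 scale, beside 0.08 for all genes, and the median size of change, sign left aside, was 0.64 beside 0.42. These medians hold fitted changes of genes that 1 group did not hold above background, whose size is not measured. With such genes at their bound (5 members, 946 of all genes) the median size was 0.64 for the members and 0.41 for all genes, and among members 0.56 for the 27 FOX genes and 1.02 for the 9 SOX genes, 3 of which stood at a bound. Over genes above background on all 9 arrays it was 0.55 for the members beside 0.38 for all. At 8 nM the median change was -0.02 (all genes -0.06) and the median size 0.25 (all genes 0.19). Of the 9 SOX genes 6 were called at 80 nM, 3 higher and 3 lower, and none at 8 nM. SOX2, SOX3 and SOX5 are among these 6 and were not above background in every group. Of the 27 FOX genes 7 were higher and 5 lower at 80 nM. Of all genes 18.8% were higher and 16.3% lower at 80 nM, together 35.1%, and 7.09% were called at 8 nM. Whether the families differ was not tested.

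Of the 63 members, 27 had no probe that passed the filter, so the counts above describe the others. Some of the tested genes passed only through the group in which they were bright: SOX5 and FOXD2 through the 80 nM arrays, FOXP2 and SOX3 through the untreated arrays. Over the 26 members well above background on all 9 arrays, 7 were higher and 4 lower at 80 nM, 42.3% in either direction, beside 31% of the 18850 such genes. The 3 arrays at 80 nM lay wholly above the 3 untreated arrays for 12 members and wholly below for 18, leaving 6 that overlapped. Of all genes 40.3% lay above and 31.7% below, 72% in all. At 8 nM, 11 members did not overlap with untreated, 5 above and 6 below, beside 34.2% of all genes, 15.8% above and 18.4% below.

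**Figure D1:**
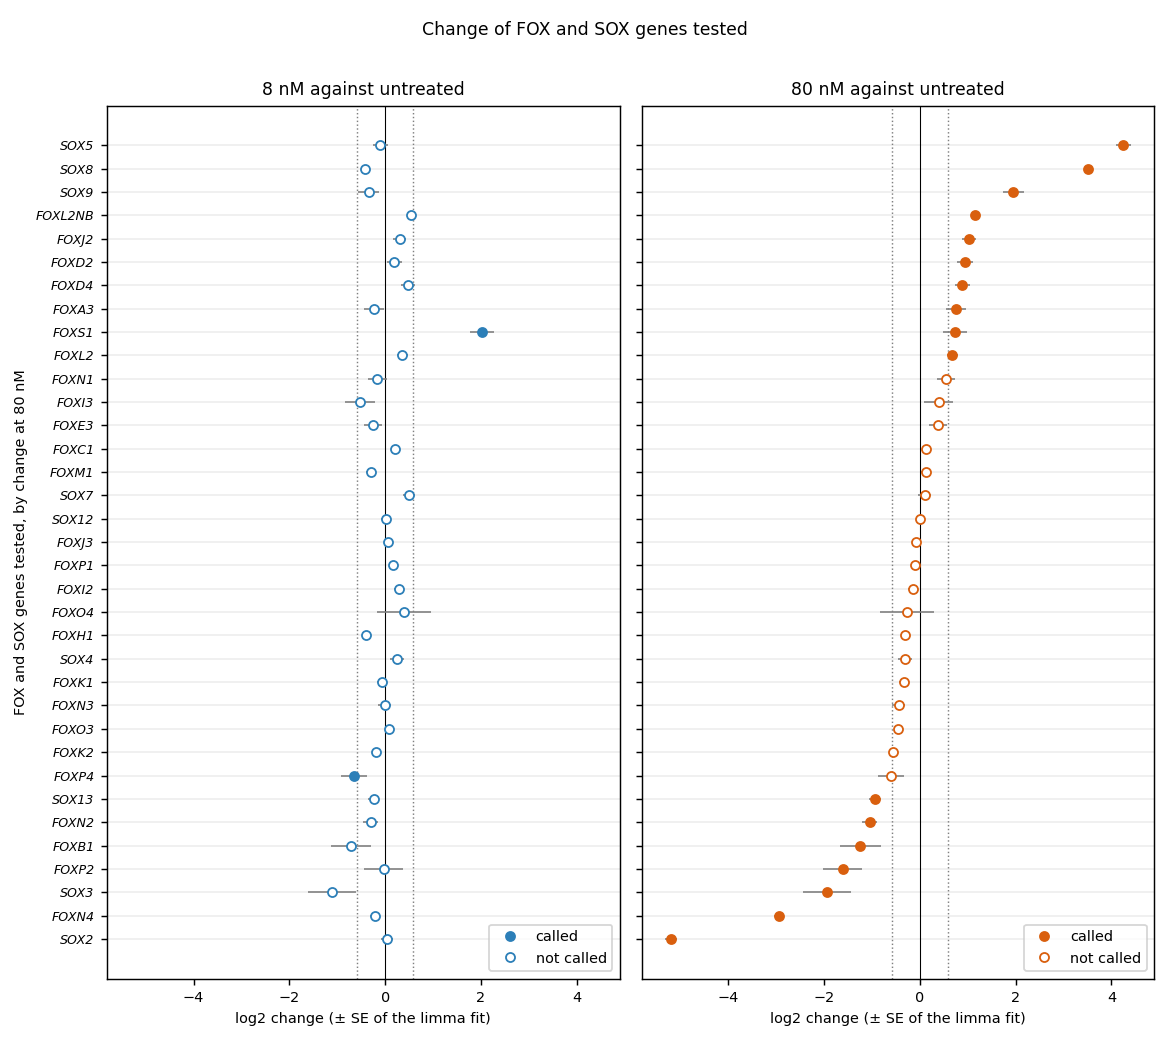
Log2 change of 35 of the FOX and SOX genes tested (x axis, with the SE of the limma fit) at 8 nM on the left and 80 nM on the right, ordered by the change at 80 nM, with dotted lines at 1.5-fold and 0.67-fold. Changes of genes not above background in 1 group (SOX2, SOX3, SOX5 and FOXP2 at 80 nM, SOX3 at 8 nM) are fitted and no measure of size. Filled points were called: FOXS1 (2.02) and FOXP4 (-0.65) at 8 nM, and 17 genes at 80 nM, from SOX5 at 4.25 to SOX2 at -5.19.

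The compound binds C/G-rich DNA, so promoters of members with large changes are given before their values. The RefSeq promoter table (GRCh38.p14, 250 bases before to 50 after a gene's start) matched 43 of the 63 members with 59 promoters. The printed runs are the 250 bases before the start of the 3 called genes with the largest fall (SOX2, SOX3 and FOXN4) and the 3 with the largest rise at 80 nM (SOX5, FOXJ2 and FOXL2NB) among those with a single listed promoter, and of FOXL2, the neighbour of FOXL2NB. Each run reads from 5′ to 3′ in the direction of its gene, and capitals mark the GC box letters GGGCGG or, on the other strand, CCGCCC.
SOX2, chr3:181711675-181711924, plus strand: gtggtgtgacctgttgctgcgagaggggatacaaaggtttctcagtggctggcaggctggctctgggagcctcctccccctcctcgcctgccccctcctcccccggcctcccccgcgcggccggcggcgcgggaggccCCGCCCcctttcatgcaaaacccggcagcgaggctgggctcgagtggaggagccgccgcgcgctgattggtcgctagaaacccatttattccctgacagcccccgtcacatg
SOX3, chrX:140505070-140505319, minus strand: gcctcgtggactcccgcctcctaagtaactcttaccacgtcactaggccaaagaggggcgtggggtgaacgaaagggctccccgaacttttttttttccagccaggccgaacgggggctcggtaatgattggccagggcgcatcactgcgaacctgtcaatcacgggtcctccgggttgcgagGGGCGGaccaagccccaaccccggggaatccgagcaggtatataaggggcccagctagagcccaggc
FOXN4, chr12:109309285-109309534, minus strand: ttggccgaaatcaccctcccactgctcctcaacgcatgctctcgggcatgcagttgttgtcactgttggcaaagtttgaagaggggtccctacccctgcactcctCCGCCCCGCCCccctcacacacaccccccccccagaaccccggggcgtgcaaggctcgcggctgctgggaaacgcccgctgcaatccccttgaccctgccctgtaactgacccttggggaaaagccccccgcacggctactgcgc
SOX5, chr12:24562492-24562741, minus strand: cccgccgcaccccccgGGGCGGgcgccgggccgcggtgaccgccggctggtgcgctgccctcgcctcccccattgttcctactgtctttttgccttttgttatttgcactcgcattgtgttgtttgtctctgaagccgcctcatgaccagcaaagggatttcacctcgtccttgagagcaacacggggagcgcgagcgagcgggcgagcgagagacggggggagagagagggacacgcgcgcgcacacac
FOXJ2, chr12:8032466-8032715, plus strand: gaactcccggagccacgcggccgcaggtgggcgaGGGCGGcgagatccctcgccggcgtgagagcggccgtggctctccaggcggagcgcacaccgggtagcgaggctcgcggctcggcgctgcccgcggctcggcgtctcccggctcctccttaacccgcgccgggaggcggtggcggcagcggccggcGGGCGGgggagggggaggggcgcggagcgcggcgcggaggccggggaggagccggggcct
FOXL2NB, chr3:138946967-138947216, plus strand: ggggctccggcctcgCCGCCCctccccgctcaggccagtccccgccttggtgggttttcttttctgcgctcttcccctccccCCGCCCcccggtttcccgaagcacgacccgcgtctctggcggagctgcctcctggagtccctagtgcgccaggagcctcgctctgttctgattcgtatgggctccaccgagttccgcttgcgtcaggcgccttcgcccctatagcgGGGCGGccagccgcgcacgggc
FOXL2, chr3:138947138-138947387, minus strand: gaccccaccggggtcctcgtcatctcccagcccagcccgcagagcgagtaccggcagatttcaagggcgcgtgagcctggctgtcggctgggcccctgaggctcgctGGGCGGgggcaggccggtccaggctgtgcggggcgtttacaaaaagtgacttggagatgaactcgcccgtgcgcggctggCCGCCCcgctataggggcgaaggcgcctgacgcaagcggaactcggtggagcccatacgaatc

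In these windows SOX2, SOX3 and SOX5 had 1 GC box each, FOXN4 had a pair that overlaps by a base, FOXJ2 and FOXL2 had 2 each and FOXL2NB had 3. The box of SOX2 began 112 bases before the start, that of SOX3 67 and that of SOX5 234. The C+G share was 68.8% for SOX2, 61.6% for SOX3 and 65.2% for FOXN4, and 65.6% for SOX5, 81.2% for FOXJ2 and 70.8% for FOXL2NB. FOXL2 and FOXL2NB start 80 bases apart on opposite strands, and their 300-base promoters share 179 bases. The box 22 bases before the start of FOXL2NB and the box 63 bases before that of FOXL2 are the same site, read on opposite strands.

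Over the full 300 bases, 38 of the 59 member promoters (64.4%) held at least 1 GC box on either strand, beside 45% of all 35116 promoters in the table, and the median C+G share was 66.3% beside 58.7%. Of the genes higher at 80 nM, 7 had a promoter in the table, and 6 of these 7 promoters held a GC box. The overlapping promoters of FOXL2 and FOXL2NB, which share a box, are both among them. The genes lower at 80 nM had 7 promoters of 6 genes, and 4 of these held one. Tested members that were not called at 80 nM had 24 promoters of 14 genes, and 16 of these promoters (66.7%) held one. FOXP1, FOXO3 and FOXJ3 have several promoters each among them, so this share counts promoters and not genes. Only FOXO4 and SOX4 of these genes had no box in any listed promoter. A match here says that the letters are present and not that a factor or the compound sits there.

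SOX2, SOX3 and SOX1 form the SOXB1 group, which keeps neural and pluripotent progenitors undifferentiated. SOX2 (NM_003106) read -3.02, -2.92 and -2.87 on the untreated arrays, -2.75, -2.89 and -3.03 at 8 nM and -7.95, -8.41 and -8.01 at 80 nM. The 8 nM arrays overlapped the untreated ones, and the 80 nM arrays lay far below both, not well above background on any. The fitted change at 80 nM was -5.19 ± 0.13 (SE, adjusted p = 3.6e-08, limma with Benjamini-Hochberg adjustment), and as a bound SOX2 was at least 7.88-fold lower. With normexp, a background correction that draws dim probes together, the fitted change was -1.72 and was still called. At 8 nM the change was 0.04 ± 0.13 with an adjusted p of 0.84.

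SOX3 (NM_005634) was dim in every group, at -4.74, -5 and -4.95 in untreated, -5.66, -7.28 and -5.07 at 8 nM and -7.34, -6.69 and -6.44 at 80 nM. It was well above background on the 3 untreated arrays and on none of the 6 treated ones. It fell at 80 nM, at least 2.02-fold (fitted change -1.93 ± 0.5, adjusted p = 0.011). The lower means at 8 nM gave a bound of at least 1.51-fold with an adjusted p of 0.18, which did not pass. The fall at 80 nM was not called with normexp background correction or on the authors' log2 values, where it read -0.21 at its smallest. SOX1 was above background on no array.

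In the SOXE group, which acts in testis, cartilage and neural crest, both measured members rose at 80 nM. SOX8 (NM_014587) read -2.41, -2.45 and -2.5 in untreated, -2.74, -2.78 and -3.06 at 8 nM and 1.04, 1.05 and 1.1 at 80 nM. No group overlapped another, and the 80 nM arrays were the highest. The rise at 80 nM was 3.52 ± 0.09, or 11.5-fold (adjusted p = 4.8e-08). At 8 nM SOX8 was lower by a change of -0.41 ± 0.09 (adjusted p = 0.024), a size under the 1.5-fold of the call.

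SOX9 (NM_000346), the main regulator of chondrocyte genes, read -2.87, -3.89 and -3.41 in untreated, -3.84, -3.76 and -3.57 at 8 nM and -1.36, -1.55 and -1.4 at 80 nM. The 8 nM arrays lay within the untreated range and the 80 nM arrays lay above both groups. The rise was 1.95 ± 0.22, or 3.86-fold (adjusted p = 0.00013). SOX10 was above background on no array.

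The SOXD factors SOX5, SOX6 and SOX13 lack a transactivation domain of their own and work beside other SOX factors. SOX5 (NM_152989) read -8.07, -7.65 and -8.23 in untreated, -8.16, -7.94 and -8.14 at 8 nM and -3.93, -3.57 and -3.67 at 80 nM. It was well above background only on the 3 arrays at 80 nM, where it was at least 5.13-fold higher than in untreated cells (fitted change 4.25 ± 0.16, adjusted p = 3.1e-07, 1.19 with normexp correction and still called) and at least 4.56-fold higher than at 8 nM (adjusted p = 2.6e-07).

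SOX13 (NM_005686) went the other way, from -0.7, -0.98 and -0.87 in untreated and -0.95, -1.29 and -1.02 at 8 nM to -1.93, -1.65 and -1.79 at 80 nM. Its 80 nM arrays lay below all others, with a change of -0.94 ± 0.12 (adjusted p = 0.00026). A second probe of SOX13 gave -0.31. SOX6 was above background on 1 array, an untreated one, and was not tested.

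The SOXC factors act in neuronal maturation and cell survival. SOX4 (NM_003107) read -1.89, -1.71 and -1.74 in untreated, -1.49, -1.86 and -1.25 at 8 nM and -2, -2.14 and -2.12 at 80 nM. Its 80 nM arrays lay below the untreated ones by a change of -0.31 ± 0.14 that did not pass (adjusted p = 0.097). SOX12 (NM_006943) stayed between -3.38 and -3.34 on the 6 untreated and 80 nM arrays, with -3.13, -3.43 and -3.5 at 8 nM, and its change at 80 nM was 0.01 ± 0.1, or -0.27 (adjusted p = 0.42) when arrays were scaled to the spike-in probes, which read RNA added to each labeling. Under it the median gene on the array changed by -0.2 at 80 nM instead of 0.08. SOX11 was above background on no array.

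Of the SOXF factors, which act in vessel endothelium, only SOX7 was tested. SOX7 (NM_031439) read -5.54, -5.6 and -5.63 in untreated, -4.97, -5.42 and -4.88 at 8 nM and -5.43, -5.49 and -5.56 at 80 nM. The 8 nM arrays lay above both other groups, with a change of 0.5 ± 0.13 against untreated (adjusted p = 0.043), under the 1.5-fold of the call. SOX17 and SOX18 were above background on no array, which was so for SOX14, SOX15 and SOX21 as well. SOX30, a testis gene, was above background on 3 arrays by its better probe.

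**Figure D2:**
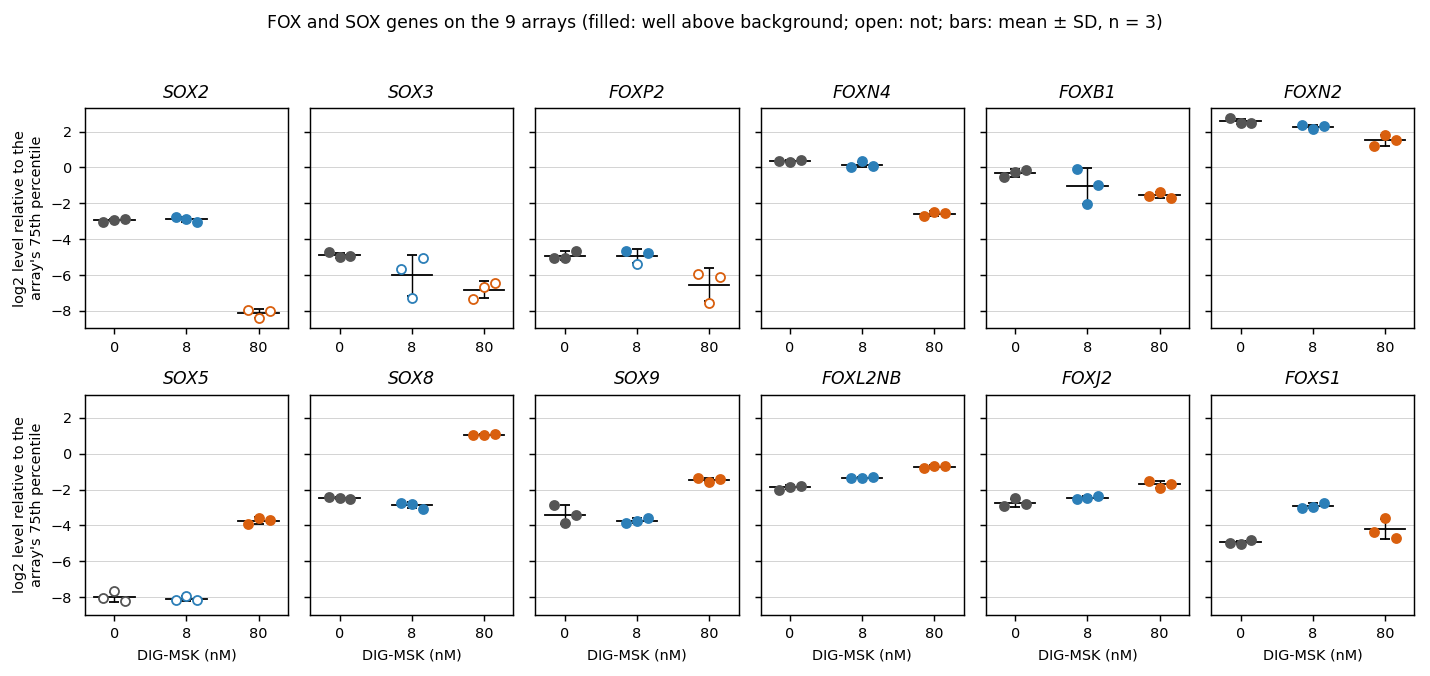
Levels of 12 FOX and SOX genes on the 9 arrays, 1 panel per gene, with DIG-MSK in nM on the x axis and the log2 level relative to the 75th percentile of the array on the y axis. Points are arrays, filled where well above background, and lines with bars are the mean ± SD of 3 arrays; SOX2 drops to about -8 at 80 nM with open points, SOX5 leaves that level at 80 nM, SOX8 and SOX9 rise at 80 nM, and FOXS1 is highest at 8 nM.

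Of the forkhead genes, FOXN4 (NM_213596), which acts in retinal and spinal interneuron progenitors, stayed above background throughout. Its levels were 0.35, 0.31 and 0.43 in untreated, 0.04, 0.34 and 0.1 at 8 nM and -2.71, -2.48 and -2.53 at 80 nM. The 80 nM arrays lay below all others, with a change of -2.94 ± 0.1, or 7.66-fold lower (adjusted p = 1.7e-07).

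FOXB1 (NM_012182), a gene of the developing diencephalon, spread widely at 8 nM. It read -0.56, -0.26 and -0.13 in untreated, -0.06, -2.04 and -0.97 at 8 nM and -1.59, -1.38 and -1.71 at 80 nM. The 80 nM arrays lay below the untreated ones by -1.24 ± 0.42 (adjusted p = 0.032), and the 8 nM arrays overlapped both groups. Without untreated replicate 3 the change was -1.15 and the gene was no longer called.

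FOXP2 (NM_014491), known from speech and motor circuits, was dim: -5.03, -5.07 and -4.65 in untreated, -4.68, -5.39 and -4.78 at 8 nM and -5.92, -7.57 and -6.1 at 80 nM. At 80 nM it was above background on no array and at least 1.96-fold lower (fitted change -1.61 ± 0.41, adjusted p = 0.0094). A second probe of FOXP2 gave -1.69 with an adjusted p of 0.0025 when each probe was tested. With normexp correction or the authors' log2 values the change was not called, and its smallest value was -0.14.

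FOXS1, a forkhead gene of pericytes and sensory neurons, was the only member called higher at 8 nM, and it was higher there than at 80 nM. FOXS1 (NM_004118) read -4.95, -5.01 and -4.83 in untreated, -3, -2.97 and -2.75 at 8 nM and -4.37, -3.56 and -4.68 at 80 nM. The 3 groups did not overlap, with the 8 nM arrays on top. The rise at 8 nM was 2.02 ± 0.25, or 4.07-fold (adjusted p = 0.0018), and the difference of 80 nM from 8 nM was -1.3 ± 0.25 (adjusted p = 0.0024). Both were called under every alternative, but they shrank to 0.97 and -0.58 at the least. At 80 nM the rise against untreated was 0.73 ± 0.25 (adjusted p = 0.034). Without 80 nM replicate 2 that rise was 0.4 and was not called, and without untreated replicate 2 it was 0.69 and not called. It was not called either with normexp correction (0.39), the spike-in scaling (0.45) or the authors' log2 values (0.48).

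FOXL2, which sets ovarian granulosa cell identity, and FOXL2NB beside it rose together. FOXL2NB (NM_001040061) read -2, -1.86 and -1.78 in untreated, -1.34, -1.35 and -1.32 at 8 nM and -0.8, -0.68 and -0.66 at 80 nM. The 3 groups were separate and ordered by concentration. Its change at 8 nM, just under the call, was 0.54 ± 0.08 with an adjusted p of 0.0039. The rise at 80 nM was 1.16 ± 0.08 (adjusted p = 7.5e-06).

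FOXL2 (NM_023067) had the same order with smaller steps. It read -0.08, 0.1 and -0.04 in untreated, 0.22, 0.62 and 0.23 at 8 nM and 0.64, 0.71 and 0.69 at 80 nM. The change at 80 nM was 0.68 ± 0.12 (adjusted p = 0.0012). The step to 8 nM, of 0.36 ± 0.12, did not pass (adjusted p = 0.077). Scaled to the spike-in probes, the rise of FOXL2 at 80 nM read 0.41 and was not called.

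FOXJ2, FOXD2, FOXD4 and FOXA3 were the other forkhead genes higher at 80 nM. FOXJ2 (NM_018416), a widely expressed forkhead gene, read -2.94, -2.49 and -2.81 in untreated, -2.53, -2.46 and -2.36 at 8 nM and -1.5, -1.93 and -1.71 at 80 nM. Its 80 nM arrays lay above all others, by 1.03 ± 0.14 over untreated (adjusted p = 0.00043).

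FOXD2, FOXD4 and FOXA3, the liver forkhead factor, were called with changes of 0.94 ± 0.16, 0.89 ± 0.15 and 0.76 ± 0.21 (adjusted p = 0.0012, 0.0014 and 0.015). Their 80 nM arrays lay above the untreated ones in each case. None of these 3 was called with normexp correction (0.94 became 0.3, 0.89 became 0.57 and 0.76 became 0.26). With the authors' log2 values FOXD2 (0.38) and FOXA3 (0.29) were not called, nor was FOXA3 with the spike-in scaling (0.48). FOXD2 was well above background on 1 of 3 untreated arrays. FOXD4 has near-identical copies elsewhere in the genome, so its signal may not be its own alone.

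FOXM1 (NM_202002), which drives genes of mitosis, read 1.7, 1.82 and 1.78 in untreated, 1.35, 1.6 and 1.46 at 8 nM and 1.97, 1.79 and 1.89 at 80 nM. Its 8 nM arrays lay below both other groups. The change at 8 nM was -0.3 ± 0.09, with an adjusted p of 0.059. The change at 80 nM was 0.12 ± 0.09, with an adjusted p of 0.28, or -0.16 when scaled to the spike-in probes, and 80 nM exceeded 8 nM by 0.41 ± 0.09 (adjusted p = 0.004).

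FOXO3 (NM_001455), a factor of stress and growth arrest, read 0.69, 0.68 and 0.8 in untreated, 0.67, 0.92 and 0.85 at 8 nM and 0.24, 0.33 and 0.25 at 80 nM. The 80 nM arrays were the lowest, by a change of -0.45 ± 0.08 (adjusted p = 0.0019), under the size of the call. Of its other probes, 1 gave -0.44 and 1 gave 0.17. The copy FOXO3B is nearly identical, so the signal may not be that of FOXO3 alone. FOXO4 spread from -5.62 to -2.97 at 80 nM, with a change of -0.27 ± 0.56. FOXO1 (NM_002015) was above background on 1 untreated and 1 8 nM array and was not tested. It read -5.91, -5.41 and -6.17 in untreated, -5.31, -6.25 and -6.21 at 8 nM and -6.88, -7.2 and -6.8 at 80 nM.

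FOXK1 (NM_001037165), a factor of metabolic genes, read -0.75, -0.42 and -0.47 in untreated, -0.7, -0.56 and -0.57 at 8 nM and -0.89, -0.89 and -0.83 at 80 nM. Its change at 80 nM was -0.33 ± 0.1 (adjusted p = 0.018), under the size of the call, and its 80 nM arrays lay below all others. FOXK2, its close relative, changed by -0.56 ± 0.06 (adjusted p = 0.00011), just short of the call, while its other probes gave -0.78 and -0.99.

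FOXP1 (NM_032682) read 1.33, 1.23 and 1.23 in untreated, 1.47, 1.48 and 1.31 at 8 nM and 1.13, 1.13 and 1.23 at 80 nM, with a change of -0.1 ± 0.08 at 80 nM (adjusted p = 0.27) that turned to 0.14 with the mean of its probes. A dimmer probe of another FOXP1 transcript gave 0.37 with an adjusted p of 0.012. FOXP4 was the only member called lower at 8 nM. It read 5.95, 5.7 and 5.86 in untreated and 5.77, 4.56 and 5.23 at 8 nM, so the groups overlapped, and the change of -0.65 ± 0.27 had an adjusted p of 0.14. With the replicate number as a block the call was lost (adjusted p = 0.17), without 8 nM replicate 2 the change was -0.34, and a second FOXP4 probe gave 0.18. Leaving out any of the other arrays ended it as well, except 8 nM replicate 1 (-0.94) and 80 nM replicate 2. At 80 nM FOXP4 read 5.08, 5.47 and 5.16, below the untreated arrays, with a change of -0.6 ± 0.27 that just missed the call (adjusted p = 0.085).

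FOXN2 (NM_002158) was called lower at 80 nM by its brighter probe, from 2.74, 2.47 and 2.49 in untreated and 2.36, 2.13 and 2.32 at 8 nM to 1.2, 1.81 and 1.53. That change was -1.05 ± 0.16 (adjusted p = 0.00057). The other probe of FOXN2 moved up by 0.47, with an adjusted p of 0.003, so the gene had no single direction, and the mean of both probes gave -0.29. FOXN1, FOXN3, FOXC1, FOXI2, FOXI3, FOXE3, FOXH1 and FOXJ3 were not called at 80 nM, with changes from -0.44 (FOXN3) to 0.54 (FOXN1). FOXH1 was lower at 8 nM by a change of -0.39 ± 0.09 (adjusted p = 0.025). Just inside the rule at 80 nM lay FOXL2 at 0.68, and just outside it lay FOXN1 at 0.54 and FOXK2 at -0.56.

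**Figure D3:**
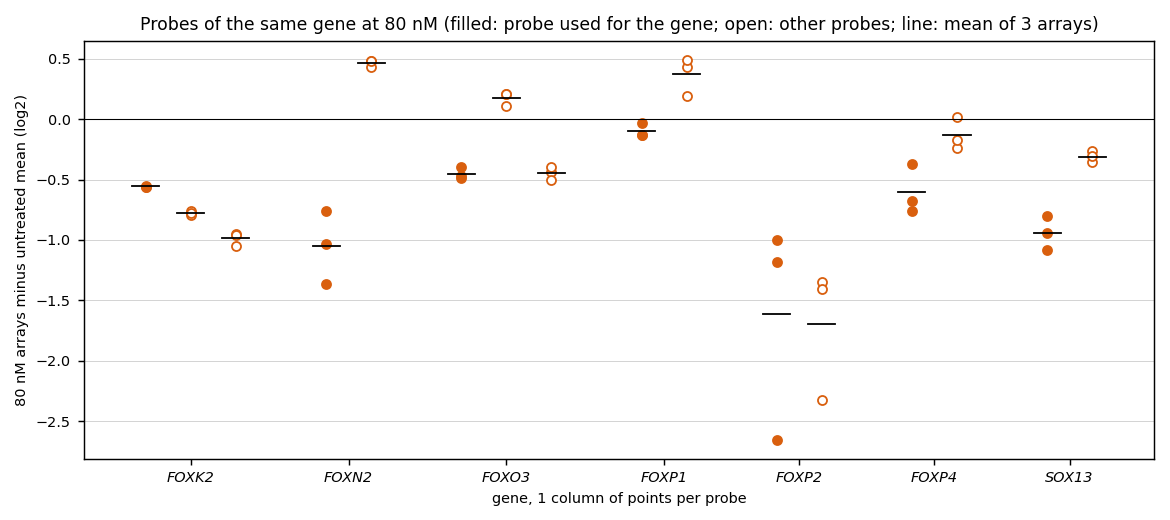
Change at 80 nM of each passing probe of the 7 members with more than 1 such probe, as the level on each of the 3 arrays at 80 nM minus the mean of the 3 untreated arrays (y axis, log2), 1 column of points per probe. Filled points are the probe used for the gene. The probes of FOXK2, FOXP2, FOXP4 and SOX13 moved the same way on average, while those of FOXN2 (-1.05 and 0.47), FOXO3 and FOXP1 did not.

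Among the 27 members that were not tested, 18 were above background on no array. FOXA1 (NM_004496), the pioneer factor of endoderm and hormone-responsive epithelium, came closest. It read -6.34, -5.09 and -5.16 in untreated, -6.18, -5.2 and -5.16 at 8 nM and -8, -8.08 and -7.7 at 80 nM, and was above background on 2 arrays of the first group, 2 of the second and none of the third. FOXA2, FOXC2, FOXD3, FOXF2, FOXI1, FOXJ1, FOXP3, FOXQ1, FOXR1 and FOXR2 were above background on no array. FOXB2, FOXD1, FOXE1, FOXF1 and FOXL1 were above it on 1 or 2.

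Between 80 nM and 8 nM, 10 members were higher and 7 lower, together 47.2% of the members beside 33.6% of all genes, of which 19.4% were higher and 14.2% lower. Higher were SOX5, SOX8 (3.92 ± 0.09), SOX9 (2.29 ± 0.22), FOXA3, FOXD2, FOXJ2, FOXL2NB, FOXE3, FOXI3 and FOXN1. Among the lower were SOX2, at least 8.13-fold, FOXP2, at least 1.92-fold, FOXN4, FOXN2, FOXS1 and SOX13. FOXE3, FOXI3 and FOXN1 were called here and not against untreated, with changes of 0.64, 0.92 and 0.7. Without 8 nM replicate 2, on which FOXI3 read -6.02 and FOXN1 -4.61, none of these 3 was called. FOXI3 (0.74) and FOXE3 (0.53) were not called without 8 nM replicate 3 either, nor FOXE3 without 80 nM replicate 1. With normexp, the spike-in scaling or the authors' log2 values FOXE3, FOXI3, FOXN1, FOXD2 and FOXL2NB were not called between the concentrations, FOXE3 and FOXL2NB not with median scaling either (0.53 and 0.51), and FOXE3 not with quantile normalization (0.55). FOXA3 (0.44 with normexp, 0.5 with the authors' values) and FOXP2 (-0.17 and -0.41) were lost under those 2 settings, FOXJ2 with the spike-in scaling (0.38), and FOXN2 with the mean of its probes (-0.22).

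Genes known as targets or partners of these factors were read from 7 lists, and their counts stand beside 18.8% higher and 16.3% lower at 80 nM and 4.25% higher and 2.84% lower at 8 nM over all genes. Of 14 genes under FOXM1, which act in mitosis, 1 was higher at 80 nM and none lower, with a median change of 0.04. CDC25B, a phosphatase that starts mitosis, rose by 0.76 ± 0.07 (adjusted p = 4.4e-05), while CCNB2 (-0.5), KIF20A (0.41) and CENPA (-0.55) stayed under the size of the call. At 8 nM 13 of the 14 had a negative change, with a median of -0.32 beside -0.06 for all genes, and 8 had an adjusted p under 0.05 at any size, beside 13.6% of all genes. SKP2, a subunit of the ligase that degrades p27, was the one called, at -0.81 ± 0.13 (adjusted p = 0.0053).

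Of 22 FOXO targets 13 were tested, and at 80 nM 4 were higher and 3 lower, with a median of 0.15. BCL2L11, which codes for the death factor BIM, rose by 1.42 ± 0.11 (adjusted p = 1.4e-05), GADD45A, a gene of DNA damage response, by 1.14 ± 0.09 and BCL6, a repressor, by 1.16 ± 0.09, while TXNIP, a regulator of thioredoxin, changed by -1.28 ± 0.13 (adjusted p = 8.5e-05). At 8 nM 4 were higher and none lower, namely BBC3 (0.9), GADD45A (1.16), SESN1 (1.35) and TXNIP (0.75). BBC3, GADD45A and SESN1 are also known targets of p53, and these 4 were named for their count after the values were seen.

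The genes that regulate FOXO proteins held 5 lower and none higher at 80 nM among 14 tested, and none called at 8 nM. CREBBP, an acetyltransferase, fell by 1.19 on the log2 scale (adjusted p = 2.8e-05), PDPK1, a kinase that activates AKT, by 0.96 and PIK3CA, the catalytic subunit of PI3-kinase, by 1.13. YWHAZ, a 14-3-3 protein, changed by 0.5 ± 0.06, under the call.

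The genes of the pluripotency circuit around SOX2 had 6 tested of 14, and at 80 nM 1 was higher and 2 were lower. LIN28A, which blocks let-7 processing, read -0.54, -0.53 and -0.47 in untreated, -0.34, -0.55 and -0.41 at 8 nM and -6.34, -6.16 and -6.61 at 80 nM. It was above background on no 80 nM array and at least 42.3-fold lower there (adjusted p = 1.1e-08). SALL4 fell as well, with a change of -1.57 ± 0.07 (adjusted p = 5.9e-07), whereas NANOG rose by 0.68 ± 0.17 (adjusted p = 0.0093). UTF1 (0.45), POU5F1 (-0.2) and LIN28B (-0.11) were not called. LIN28B had a mean level of 4.28 in untreated and 4.17 at 80 nM.

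Of 13 neural genes under SOXB1 and SOXC factors 6 were tested, and at 80 nM 4 were lower and 1 higher, with a median change of -2.12 when the 3 genes not above background at 80 nM stood at their bound (-3.21 with their fitted values). POU3F2, a neural POU factor, went from -0.15, -0.51 and -0.46 in untreated to -8.01, -8.07 and -7.63 at 80 nM, at least 46.5-fold lower (adjusted p = 1.6e-08). PAX6 was at least 9.29-fold lower (adjusted p = 1.9e-08) and MAP2, a microtubule protein of neurons, at least 24.4-fold lower (adjusted p = 4.8e-07). TUBB3 was the fourth, at -1.02. NES, the intermediate filament of neural progenitors, went up, from 3.42, 3.63 and 3.61 to 5.24, 5.27 and 5.29, a change of 1.71 ± 0.08 (adjusted p = 7.6e-07). None of the 6 was called at 8 nM.

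Of the cartilage genes under SOX9, SOX5 and SOX6, 10 were tested, and at 80 nM 2 were higher and 3 lower, with a median of -0.18. COL2A1, the main cartilage collagen, rose by 1.36 ± 0.1 (adjusted p = 1.1e-05), while HAPLN1, a link protein of cartilage matrix, changed by -4.7 ± 0.08 (adjusted p = 5.6e-09), COMP by -1.42 and COL9A1 by -0.99. At 8 nM 3 were higher and none lower, named for their count: COL9A3 (1.83 ± 0.08), COL9A2 (1.45) and COL11A2 (0.7). Of these, COL9A2 was also higher at 80 nM (1.08), whereas COL9A3 (-0.27) and COL11A2 (-0.09) were not called there. Of 5 endoderm genes tested, APOA1 rose by 0.72 (adjusted p = 0.0056) and EOMES changed by -0.79 (adjusted p = 0.00065) at 80 nM. AFP was above background only in untreated cells, and its change at 80 nM did not pass (adjusted p = 0.12). On 80 nM replicate 2 AFP read -4.63, above the untreated arrays at -4.96, -5.21 and -5.57. TFF1, at -0.25, did not pass.

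**Figure D4:**
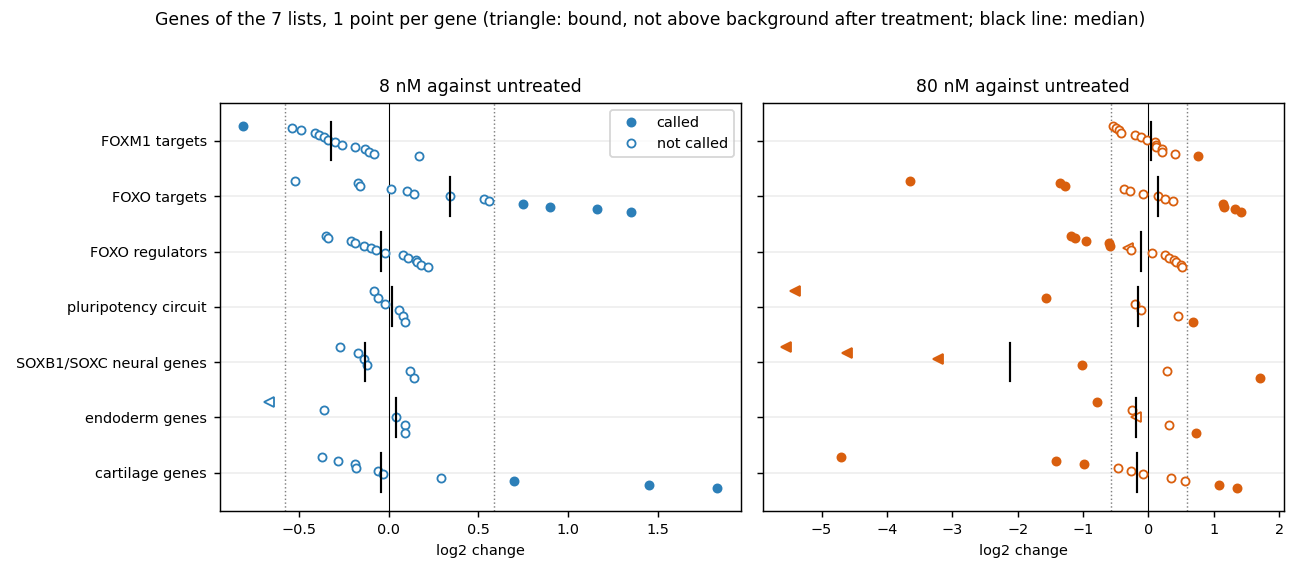
Log2 change (x axis, with a range of its own on each side) of the tested genes of 7 lists at 8 nM and at 80 nM, 1 point per gene, filled where called, with triangles at the bound of genes not above background after treatment, a black line at the median of each list and dotted lines at 1.5-fold and 0.67-fold. At 80 nM the median of the neural list, 3 of whose 6 genes stand at a bound, lies at -2.12 and those of the others between -0.19 and 0.15; at 8 nM called genes stand in the lists of FOXM1 targets, FOXO targets and cartilage genes.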

How the data were processed

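The authors hybridized Cy3-labeled RNA to single-colour arrays of 62976 spots, and extracted spot intensity with Feature Extraction 10.7.3.1, per the file headers. The deposited processed intensity is background-corrected and not scaled between arrays. Their methods name a lowess step, which has no second channel here, and a labeling kit other than the one the labels name. A deposited table of log2 values per probe, quantile-normalized judging by its values, was an alternative only. Flags deposited with each spot, whether it is well above background or an outlier, are in no unit of expression.

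Outlier spots were left out, spots of a probe were averaged, and the log2 of the 75th percentile of each array (831.7 to 1170.2) was subtracted. Of 42405 gene probes, 25715 were named by RefSeq accession. A gene was represented by its brightest passing probe. Of 26458 probes that passed, 21833 genes were tested in R 4.3.3 with limma 3.58.1 on all 9 arrays, with Benjamini-Hochberg adjustment over all genes. A fitted change against a group not above background is no measure of size, so a bound is given: the mean of the bright group over, per array of the dim group, the higher of the probe's signal and the lowest signal well above background. Such a bound holds for the main processing only and leaves out the spread of the bright arrays. Motifs were counted on both strands. The procedure was tested on simulated data. With 3 arrays a group, precision is limited by their number, and p-values measure the spread between these cultures.

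Samples were grouped by their labels. Deviations of equally numbered arrays from their group means correlated weakly between untreated and 8 nM (0.11, 0.1 and 0.16), but not between 80 nM and the others (-0.12 to 0.02). The weak correlation was taken as pairing, though the labels name no shared day or batch. The main fit had no term for it, and the replicate block was an alternative only.

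Of the 36 members tested, 1 is in the counts and is not reported here. The members and lists were chosen with earlier results of these data known. The SOX groups and roles by which members are ordered were assigned with their values seen. Named were up to 6 members with the largest rises and falls among calls that do not overlap, 13 members named for their role, and up to 4 genes per list with the smallest p at 80 nM. Further genes were named outside these rules. Among them are SOX7, SOX13, FOXN2, FOXL2 and FOXP4 of the members, and POU5F1, LIN28B, TUBB3 and SKP2 of the lists. The alternatives were normexp (offset 50) on the median spot signal, quantile, median and spike-in scaling (10 probes), the authors' log2 values, dim probes kept, only probes bright on all 9 arrays, probes averaged within genes or tested apart, fits of just the groups compared, replicate blocks, calls by adjusted p-value, and fits without each array in turn. The block within only the compared groups was added after seeing the data.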

Additional observations from a re-analysis of the deposited data

How the results depend on the processing

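In the settings scored gene by gene, which leave out probes tested apart, no called result turned its direction. The uncalled changes of FOXM1, FOXP1 and SOX12 at 80 nM changed sign under some settings. With probes tested apart, the second probe of FOXN2 moved up at 80 nM (0.47), against the call. That of FOXP4 read 0.18 at 8 nM, also against the call. Of the 18 members called at 80 nM against untreated, 9 were called in every setting scored gene by gene that tested them. Among them were SOX2, SOX5, SOX8, SOX9, SOX13, FOXN4, FOXJ2 and FOXL2NB. Estimates of genes at background shrank, that of SOX2 to -1.72 at the least. Of the 17 called between 80 nM and 8 nM, 8 were called in every such setting, and of the 2 at 8 nM, FOXS1 was. With probes tested apart, the second probe of SOX13 fell short of the call against untreated (-0.31) and against 8 nM (-0.55). Members higher at 80 nM numbered 6 instead of 10 with normexp, and members lower numbered 13 instead of 8 when scaled to the spike-in probes or with no filter on dim probes, and 5 when only probes bright on all 9 arrays were fitted. Between 80 nM and 8 nM, 10 higher became 4 with normexp, with the spike-in scaling and with the authors' log2 values, and 6 with the filter on all 9 arrays, while 7 lower became 16 with the spike-in scaling, 11 with no filter and 4 with the filter on all 9 arrays. The cause was not tested.

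At 8 nM, 2 members were higher instead of 1 with quantile, median or spike-in scaling, and lower were 2 instead of 1 with median scaling, 4 with no filter, and 0 with the spike-in scaling, the authors' log2 values, the mean of a gene's probes, only the groups compared or adjusted p-values. The replicate block gave 0 lower at 8 nM, and 1 when only the compared groups were fitted, a fit in which FOXS1 at 80 nM lost its call (0.73, adjusted p = 0.086), although replicate numbers did not pair those arrays. With single arrays left out, higher at 8 nM ranged from 1 to 2 and lower from 0 to 3 (3 without 8 nM replicate 1, 0 without 8 nM replicate 2, untreated replicate 1 or 3, or 80 nM replicate 1 or 3). At 80 nM the counts ranged from 9 to 11 higher and 7 to 10 lower against untreated, and 7 to 10 higher and 7 to 10 lower against 8 nM.

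Scaled to the spike-in probes, the median of all genes at 80 nM was -0.2 instead of 0.08, and 71.9% of calls were lower instead of 46.5%. At 8 nM lower calls were 20.6% instead of 40.1%. Between the concentrations they were 77.3% with the spike-in scaling and 53.9% with median scaling, instead of 42.2%. Under that spike-in scaling FOXM1 targets at 80 nM had 0 higher and 4 lower, the pluripotency circuit 0 higher, and endoderm genes 0 higher and 2 lower. Asking for 2 GC boxes, 44.1% of member promoters held them, beside 26.7% of all. Signal near background limits SOX3, SOX5, FOXP2, FOXD2 and FOXA3, and 27 members could not be compared.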
